A study of Mus musculus with 4 samples.

Results

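The 33 genes described here encode 23 integrin subunits (15 alpha and 8 beta) and 10 laminin chains (5 alpha, 3 beta and 2 gamma). They were chosen by symbol from the 55472 entries of the gene table, and all 33 were found. Their RNA was measured in single cells of 4 mammary tumours from 3 female mice aged 13 to 14 weeks, on an FVB background after repeated back-crossing. Every mouse carried MMTV-PyMT, in which a promoter and enhancer active in mammary epithelium drive a viral oncogene, together with K14Cre (Cre under a human keratin promoter) and the Cre-dependent reporter Rosa-tdTomato. Tumour 1 is labelled as multiple mammary glands of mouse 1, tumour 2 as an inguinal gland of mouse 2, and tumours 3 and 4 both as from mouse 3, the first thoracic and the second inguinal. Every sample is a tumour, no healthy gland is among the samples, and dead cells were removed before capture, so the comparisons below are between kinds of cells within the same mice.

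Integrins are cell-surface receptors built from an alpha and a beta subunit, and the pair decides which ligand is bound. Laminins are trimers of an alpha, a beta and a gamma chain that form the sheet-like basement membrane under epithelium and around vessels, and several integrins are their receptors. In the mammary gland, basal cells sit on this membrane and hold it through hemidesmosomes, while leukocytes use a separate set of integrins to bind other cells.

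Cells were placed in 7 gates from raw counts of unique molecular identifiers (UMIs, each marking a captured RNA molecule). The gates needed at least 3 UMIs of Krt5 and Krt14 (basal), 10 of Col1a1 and Col3a1 (fibroblast), 3 of Rgs5 (mural, the contractile cells around vessels), 2 of Cdh5 and Pecam1 (endothelial), 5 of C1qa and C1qb (macrophage), or 2 of Cd3g and Trbc2 (T). Cells in none of these with at least 3 UMIs of Krt8 and Krt18 were luminal. No gate gene is among the 33, so the levels below were not used to form the gates. The gates held 930 basal, 1487 fibroblast, 238 mural, 622 endothelial, 2996 macrophage, 353 T and 20499 luminal cells. A further 8803 cells (24.4% of the 36138 kept) met no gate, and 210 met several and were left out. Gates cut a range of counts, and the share of a gate's cells under 2 times its threshold ran from 11.01% (macrophage) to 64.6% (endothelial).

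The libraries held 8434 to 9580 cell barcodes and 20281799 to 39370565 UMIs, with medians of 1922.5 to 3281 UMIs per barcode, lowest in tumour 1. Pairs of libraries shared 96 to 129 barcodes (1.10% to 1.37% of the smaller library). Every gate held all of its own type's marker genes in every tumour, and the T gate also held natural killer markers at 160 to 453 CPM (UMIs of a gene per 1000000 UMIs of the gate). Luminal markers were found in all gates: their summed level was 10.3% to 62.5% of the luminal gate's in the fibroblast, mural, endothelial, macrophage and T gates, and 28.4% to 138% in the basal gate. The basal gate of tumour 2 stood apart, since 89.1% of its 129 cells also held luminal keratins at the luminal threshold, against 30.2% to 68.6% in the other tumours. Its summed basal markers were the lowest, at 1571 CPM, against 3869 CPM in the highest tumour. Neutrophil markers reached 3025 CPM in the mural gate and 1515 CPM in the endothelial gate of tumour 4. The part of these other-cell RNAs in the results below was not tested, also where a marker level is given beside a result. CPM values compare 1 gene between gates, not genes with each other. Folds and adjusted p-values come from edgeR's quasi-likelihood test on UMIs summed per mouse and gate, with Benjamini-Hochberg adjustment over all 9105 genes tested, and a gene is called at an adjusted p under 0.05. It is written as higher or lower only when all 3 mice also moved that way.

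None of the 33 genes had its highest mean level in the luminal gate, which holds most of the cells. The highest gate was fibroblast for 10 genes, basal, mural and endothelial for 5 each, and macrophage and T for 4 each. For many genes the values of the 3 mice in the highest gate overlapped those in the next gate. Among them, Itga3 and Lama5 were highest in the mural gate from 8 and 9 UMIs. Itga8 and Itgb6 were highest in the basal gate and overlapped luminal cells. Only 14 genes reached 50 CPM in their highest gate, and of these 6 were highest in fibroblasts, 3 in endothelial cells, 2 each in mural cells and macrophages and 1 in T cells. Of the 33 genes, 22 passed the filter on low counts and were tested. The other 11, Itga2, Itga3, Itga4, Itga7, Itga8, Itgal, Itgb6, Itgb7, Lama1, Lama3 and Lamc3, are given by level only.

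**Figure D1:**
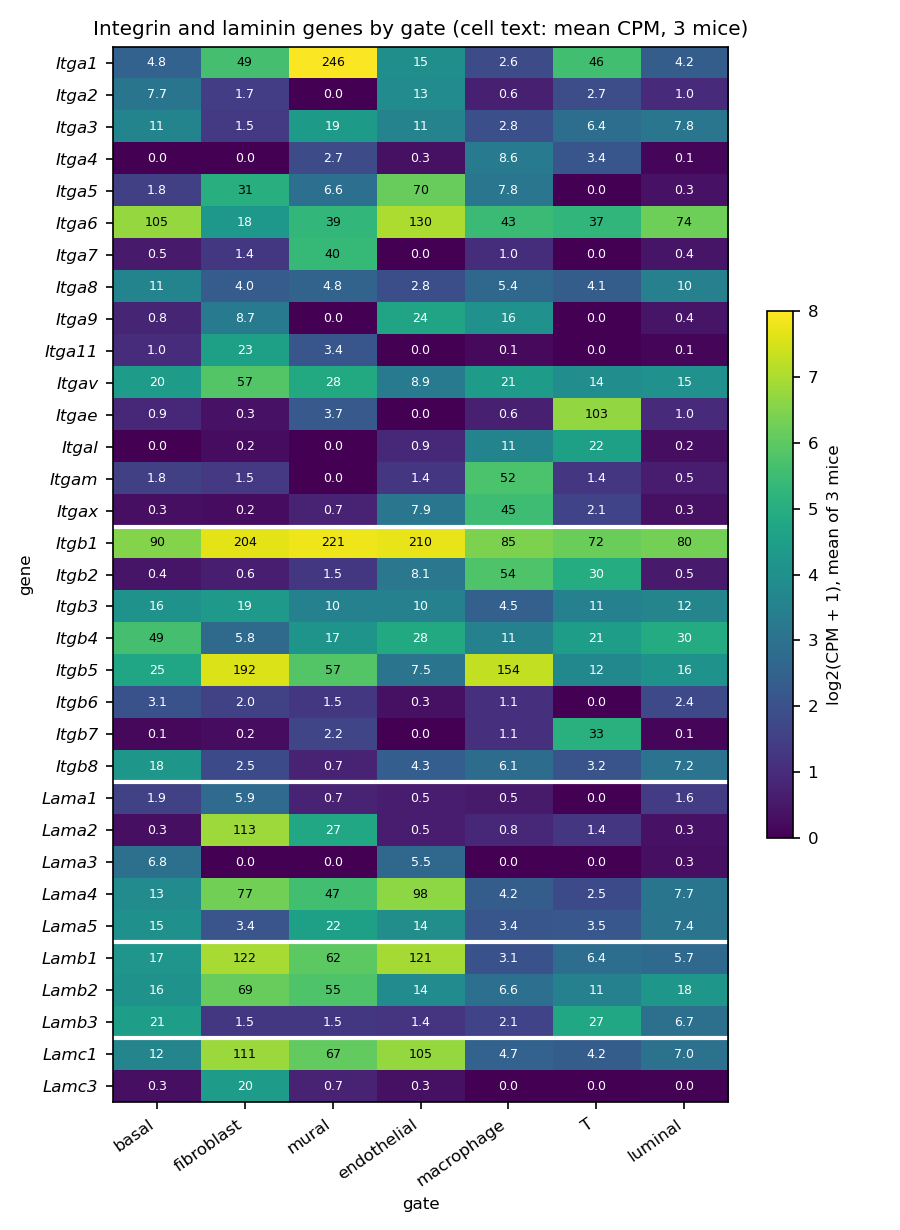
Mean level of each of the 33 genes (rows) in each gate (columns), with colour on a log2(CPM + 1) scale and the mean CPM of 3 mice printed in each cell. White lines separate integrin alpha, integrin beta and laminin alpha, beta and gamma genes. Itgb1 is at or above 72.1 CPM in every gate, while Itgae is at 103 CPM in the T gate and at or below 3.66 CPM elsewhere.

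Among the laminins, the common beta and gamma chains Lamb1 and Lamc1 were high in the same 3 stromal gates. Lamb1 stood at 110, 89.4, 197 and 120 CPM in the fibroblasts of tumours 1 to 4, at 159, 105, 103 and 92.8 CPM in endothelial cells, and at 43.9, 87.6, 73.2 and 39.9 CPM in mural cells. In the luminal gate it was 4.09 to 6.68 CPM, so no stromal value overlapped a luminal value. The log2 fold change against luminal cells was 4.44 ± 0.21 (SE) in fibroblasts (adjusted p = 6.41e-16), 4.05 ± 0.24 in endothelial cells (2.23e-13) and 3.20 ± 0.37 in mural cells (2.07e-07). Lamc1 gave 105, 99.3, 131 and 121 CPM in fibroblasts, 111, 116, 88.1 and 85.7 CPM in endothelial cells, and 43.9, 111, 34.2 and 55.8 CPM in mural cells, against 6.09 to 9.39 CPM in luminal cells. Fibroblasts and endothelial cells overlapped for both genes. Lamc1 was higher than in luminal cells by 3.95 ± 0.21, 3.57 ± 0.24 and 2.89 ± 0.36 on the log2 scale in the same order of gates (adjusted p = 5.26e-15, 2.25e-12 and 7.85e-07).

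The alpha chains carry the main integrin-binding part of a laminin. Of the 3 that were tested, Lama2 alone was called in mural against fibroblast cells and in endothelial against mural cells. Lama2, the alpha chain of the laminin best known from muscle and nerve, was 91.7, 65.3, 230 and 108 CPM in fibroblasts and 22.0, 23.9, 48.8 and 23.9 CPM in mural cells. It was at 0 UMIs in the endothelial gates of 3 tumours and at 2.99 CPM in that of tumour 3, and at 0.119 to 0.897 CPM in luminal cells. Fibroblast and mural values did not overlap each other and lay above every endothelial and luminal value, and tumour 3 was the highest in both gates. Lama2 was 8.46 ± 0.24 higher in fibroblasts (adjusted p = 9.25e-20) and 6.14 ± 0.48 higher in mural cells (1.19e-10) than in luminal cells on the log2 scale. Mural cells were below fibroblasts (-2.32 ± 0.29, adjusted p = 1.39e-06) and above endothelial cells (endothelial against mural -4.83 ± 0.66, 6.03e-06). Both differences lost their call without mouse 3 (-1.88, adjusted p = 0.161, and -9.14, 0.094). The mural gate itself held fibroblast markers at a summed 761 to 956 CPM, against 11778 to 14148 CPM in the fibroblast gate. Of these markers, Pdgfra was at 0 in the mural gate of every tumour, Dpt in tumours 1 to 3 and Lum in tumours 2 and 3. The part of fibroblast RNA in the mural Lama2 levels was not tested.

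Lama4, the alpha chain of vessel basement membranes, was 95.3, 92.0, 110 and 105 CPM in endothelial cells, 57.3, 96.5, 81.2 and 72.9 CPM in fibroblasts, and 22.0, 47.8, 68.3 and 71.7 CPM in mural cells. Endothelial cells were highest on the mean but overlapped fibroblasts in tumour 2, and luminal cells stayed at 6.36 to 9.25 CPM. Against luminal cells the log2 fold change was 3.46 ± 0.22 in endothelial cells (adjusted p = 1.24e-12), 3.28 ± 0.20 in fibroblasts (1.94e-13) and 2.69 ± 0.34 in mural cells (7.19e-07). The mural call was lost without mouse 3 (2.14, adjusted p = 0.0819). Unlike Lama2, the Lama4 level in endothelial against mural cells and in mural against fibroblast cells did not pass the test.

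Lamb2, a beta chain that replaces the Lamb1 chain in some basement membranes, had another spread over the same gates. It was 52.7, 68.1, 97.8 and 70.6 CPM in fibroblasts and 76.9, 23.9, 53.7 and 71.7 CPM in mural cells. In endothelial cells it was 0, 13.1, 31.4 and 23.2 CPM, which overlapped the 14.5 to 19.9 CPM of luminal cells. Lamb2 was higher than in luminal cells in fibroblasts (1.94 ± 0.19, adjusted p = 3.38e-09) and mural cells (1.41 ± 0.31, 0.00195), and lower in endothelial than in mural cells (-1.50 ± 0.38, 0.00824). The mural calls were lost without mouse 3 (1.30, adjusted p = 0.232, and -2.38, 0.118), and the endothelial difference also without mouse 1 (-1.20, 0.0561).

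**Figure D2:**
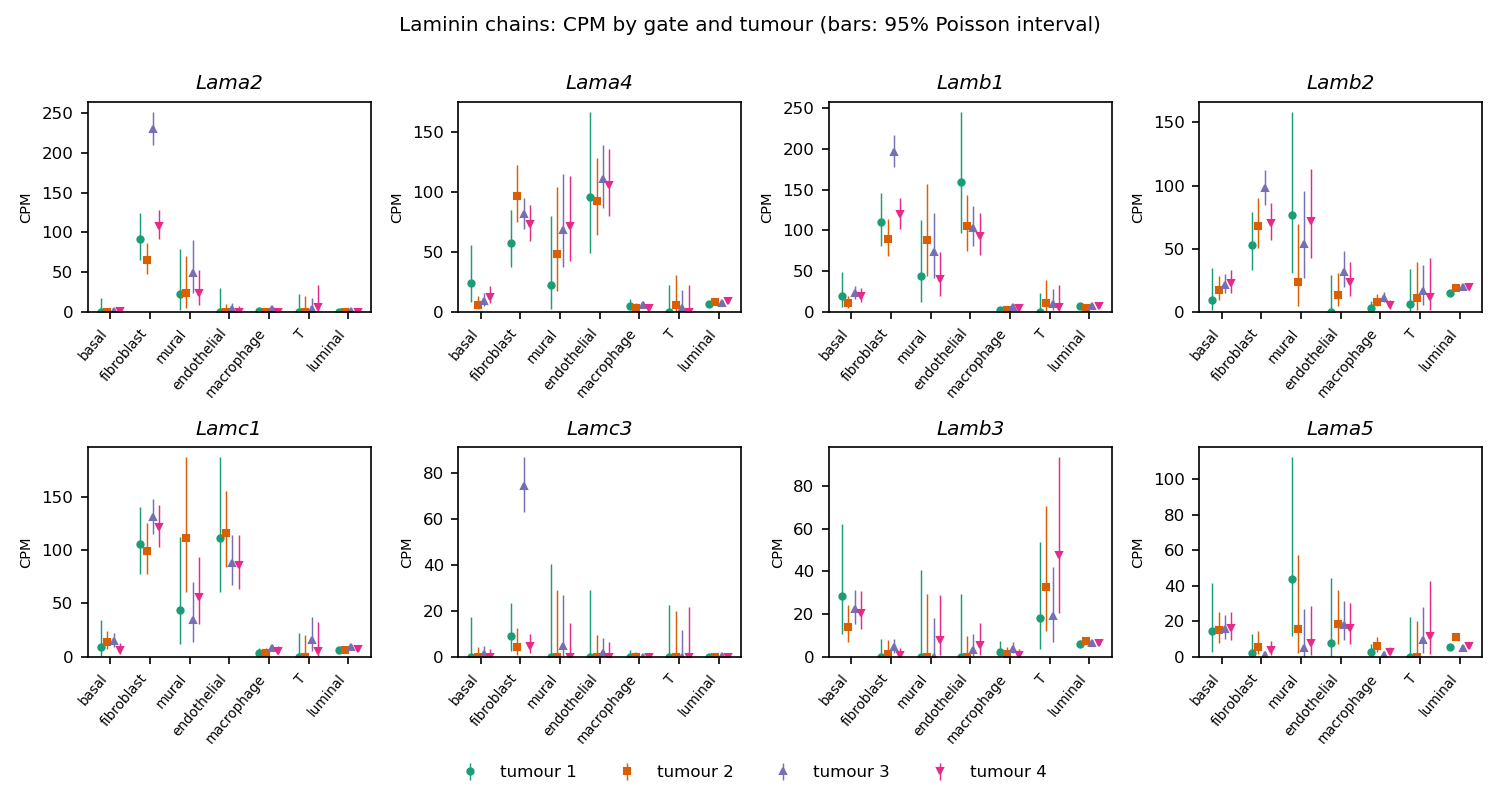
Levels of 8 laminin chains in CPM (vertical axis) by gate (horizontal axis), with a point for each tumour and bars for the exact 95% Poisson interval, which covers counting error only. Lamb1 and Lamc1 are raised in fibroblast, mural and endothelial gates, Lama2 is near 0 in endothelial cells, and Lamc3 stands at 74.4 CPM in the fibroblasts of tumour 3 against 4.26 to 9.17 CPM in the other tumours.

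The chains of the epithelial laminin that anchors hemidesmosomes were low in every gate. Lamb3, its beta chain, was 28.6, 13.8, 22.5 and 20.6 CPM in the basal gate against 6.18, 7.38, 6.40 and 6.63 CPM in luminal cells, with no overlap. The difference was 1.44 ± 0.32 on the log2 scale (adjusted p = 0.00376), and it was lost without mouse 3 (1.36, 0.410) and with doubled gate thresholds (1.38, 0.0504). Lama3, its alpha chain, gave 4.77, 3.45, 16.5 and 6.27 CPM in the basal gate and at most 0.454 CPM in luminal cells, from 36 UMIs in all in 33 of 930 basal cells. It was not tested because of the count filter. The endothelial gate gave 0 to 7.94 CPM of Lama3, from 5 UMIs in 5 of 622 cells, and overlapped the basal gate. No UMI of Lama3 was found in the fibroblast, mural, macrophage or T gates. Lama5, the alpha chain of many epithelial and vessel basement membranes, was 14.3, 14.9, 15.9 and 16.1 CPM in the basal gate and 4.84 to 10.9 CPM in luminal cells. Its basal values sat within a narrow band above every luminal value, but the difference missed the threshold (1.08 ± 0.36, adjusted p = 0.0686). Lama5 was lower in fibroblasts (-1.31 ± 0.51, adjusted p = 0.0334) and macrophages (-1.04 ± 0.42, 0.0455) than in luminal cells. Each of these calls was lost under 4 of the 10 alternatives that could test it.

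Lama1, an alpha chain known best from the embryo, stayed between 0 and 9.97 CPM in all gates and tumours and was highest in fibroblasts. Lamc3, a gamma chain of restricted distribution, was set by 1 library. In fibroblasts it was 9.17, 4.26, 74.4 and 4.60 CPM, from 4, 3, 152 and 6 UMIs. It was found in 116 of 642 fibroblasts (18.1%) of tumour 3 and in 5 of 449 (1.11%) of tumour 4, the other tumour of the same mouse. The exact 95% Poisson intervals of these levels, 63.0 to 87.2 and 1.69 to 10.0 CPM, were apart. In tumour 3 Lama2 was also the highest of the 4 tumours, and 81 of its 116 fibroblasts with Lamc3 also held Lama2, beside 304 of all its 642 fibroblasts. The fibroblast gate of tumour 3 also held B cell markers at 163 CPM, neutrophil markers at 230 CPM and skeletal muscle markers at 18.1 CPM, against at most 20.6, 25.3 and 0.767 CPM in the other tumours. Their part in the levels of Lamc3 and Lama2 was not tested. Mouse 3 gave 1 sample per gland, so no test between its glands was possible.

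Among the receptors, Itgb1, the beta subunit shared by collagen, fibronectin and laminin receptors, was the only gene above 50 CPM in all 7 gates. It was 198, 231, 268 and 207 CPM in mural cells, 230, 184, 197 and 236 CPM in endothelial cells, and 213, 200, 175 and 238 CPM in fibroblasts. These 3 gates overlapped each other and lay above the 75.3 to 86.5 CPM of luminal cells in every tumour. The log2 fold change against luminal cells was 1.33 ± 0.15 in mural cells (adjusted p = 1.4e-07), 1.31 ± 0.12 in fibroblasts (9.88e-10) and 1.16 ± 0.13 in endothelial cells (7.97e-08). In the basal gate Itgb1 was 76.3, 96.5, 95.1 and 99.4 CPM, which overlapped the luminal values and did not pass (0.17 ± 0.13, adjusted p = 0.565). A small macrophage difference (0.30 ± 0.12, adjusted p = 0.0472) lost its call under 8 alternatives. The 8803 cells outside all gates gave 85.3 to 94.0 CPM.

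Its alpha partners differed between the stromal gates. Itga1, the collagen-binding alpha subunit, was 198, 326, 239 and 195 CPM in mural cells, 57.3, 27.0, 63.6 and 59.1 CPM in fibroblasts, and 2.00, 7.88, 1.85 and 3.21 CPM in luminal cells. The mural values lay above those of every other gate in all 4 tumours. After thinning each cell to 1000 UMIs, Itga1 was found in 33.3%, 31.7%, 26.4% and 22.4% of mural cells and in 0.271% to 0.8294% of luminal cells. Without thinning the shares were 32.5% to 65.9% and 0.577% to 3.06%, at median depths of 1382.5 to 2354 UMIs per mural and 2655 to 3664 UMIs per luminal cell. Thinning left out 10 of the 40 mural, 98 luminal and 31 of the 105 T gate cells of tumour 1, and none of these gates' cells in the other tumours. It was higher in mural than in luminal cells (5.78 ± 0.34, adjusted p = 3.97e-13) and than in fibroblasts (2.04 ± 0.32, 3.95e-05), and lower in endothelial than in mural cells (-4.44 ± 0.46, 6.53e-08). Itga11, another collagen-binding subunit, was instead 18.3, 31.2, 11.3 and 29.2 CPM in fibroblasts and 0 to 7.96 CPM in mural cells. Against luminal cells, at 0.0296 to 0.179 CPM, Itga11 was higher in fibroblasts by 7.66 ± 0.56 (adjusted p = 7.37e-11). Mural against fibroblast cells it was lower (-2.99 ± 0.88, 0.0222), a call lost without mouse 1 (-2.83, 0.103). Only 8 alternatives could test Itga11 there.

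Itga5, the alpha subunit of the main fibronectin receptor, had endothelial cells at the top. It was 87.4, 71.0, 44.8 and 60.7 CPM there, 25.2, 36.9, 33.8 and 26.8 CPM in fibroblasts, 4.32 to 9.91 CPM in macrophages, and at most 0.718 CPM in luminal cells. Mural cells gave 10.98, 0, 19.5 and 0 CPM, and the T gate no UMI, which with its 827963 UMIs allows up to 3.62 CPM. The log2 fold change against luminal cells was 7.30 ± 0.43 in endothelial cells (adjusted p = 7.64e-13), 6.45 ± 0.41 in fibroblasts (1.69e-12) and 4.70 ± 0.46 in macrophages (4.74e-09). Endothelial cells were above mural cells (3.08 ± 0.67, adjusted p = 0.00248), which was lost without mouse 3 (4.02, 0.0623). Itga9, a receptor subunit for tenascin and other ligands, was also highest in endothelial cells. It was 23.8, 18.4, 28.4 and 33.9 CPM in endothelial cells, 6.61, 23.5, 18.8 and 13.8 CPM in macrophages and 4.58 to 17.6 CPM in fibroblasts, and it passed against luminal cells in all 3 (5.75 ± 0.48, 5.59 ± 0.41 and 4.64 ± 0.46). No UMI of Itga9 was found in the mural gate, which allows up to 4.46 CPM, so no fold is given there.

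Itgav, the alpha subunit that pairs with several beta subunits to bind vitronectin and related ligands, was 61.9, 48.3, 62.6 and 57.5 CPM in fibroblasts. Every other gate lay lower, at 0 to 39.9 CPM, and the fibroblast difference from luminal cells was 1.82 ± 0.21 (adjusted p = 4.1e-08). Its partner Itgb5 was high in 2 gates. It was 204, 150, 196 and 263 CPM in fibroblasts and 147, 160, 161 and 146 CPM in macrophages, against 14.4, 17.1, 17.2 and 16.4 CPM in luminal cells. The macrophage values spread little and overlapped those of fibroblasts in part. The log2 fold change against luminal cells was 3.54 ± 0.16 in fibroblasts (adjusted p = 3.35e-16) and 3.47 ± 0.16 in macrophages (2.27e-16). Mural cells were intermediate, at 43.9, 71.6, 63.4 and 47.8 CPM, and endothelial cells, at 0, 7.89, 8.96 and 21.4 CPM, were below mural cells (-2.32 ± 0.38, adjusted p = 7.55e-05). The T gate, at 3.21 to 17.8 CPM, was below macrophages (-4.02 ± 0.32, adjusted p = 2.25e-10). The other beta partners of Itgav were low. Itgb3 was 0 to 27.9 CPM in all gates and was lower in macrophages than in luminal cells (-1.09 ± 0.28, adjusted p = 0.00229). Itgb6 stayed at or below 7.97 CPM. Itgb8 was 14.3, 20.7, 15.9 and 21.5 CPM in the basal gate against 5.997 to 10.2 CPM in luminal cells (1.24 ± 0.33, adjusted p = 0.0184). Only 8 alternatives could test Itgb8 there, and its call was lost under 2 of them. These were without mouse 1 (1.25, adjusted p = 0.0822) and without the mouse block (1.29, 0.105).

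**Figure D3:**
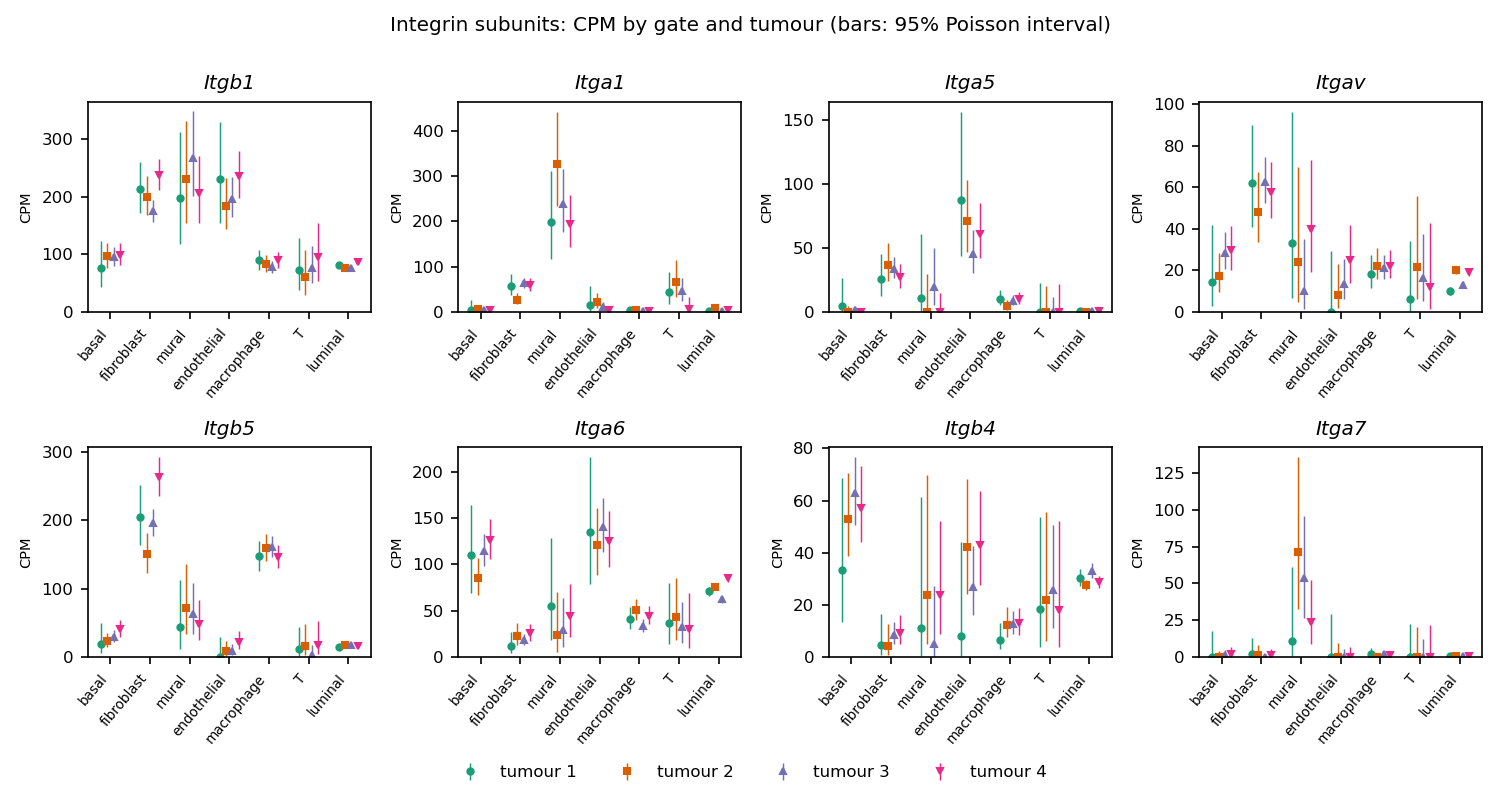
Levels of 8 integrin subunits of matrix receptors in CPM (vertical axis) by gate (horizontal axis), with a point for each tumour and bars for the exact 95% Poisson interval. Itga1 peaks in mural cells, Itga5 in endothelial cells, and Itgb5 in fibroblasts and macrophages, while Itga6 and Itgb4 are low in fibroblasts.

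Itga6 and Itgb4 encode the laminin receptor of hemidesmosomes, and the Itga6 product also pairs with that of Itgb1. Itga6 was 135, 121, 140 and 125 CPM in endothelial cells, 110, 85.0, 115 and 126 CPM in the basal gate and 70.9, 75.9, 62.1 and 85.3 CPM in luminal cells. Fibroblasts were lowest, at 11.5, 22.7, 18.1 and 25.3 CPM. Of the thinned cells, Itga6 was found in 12.7% to 15.0% of endothelial, 7.75% to 13.4% of basal, 6.20% to 7.53% of luminal and 0.500% to 2.17% of fibroblast cells, and without thinning in 21.3% to 34.2%, 21.9% to 37.1%, 18.4% to 25.8% and 2.36% to 8.15%. Of these gates, thinning left out 12 endothelial, 10 basal and 12 fibroblast cells, all of tumour 1, beside the luminal cells given above. The endothelial gate was above luminal cells (0.60 ± 0.17, adjusted p = 0.00558), a call lost without mouse 3 (0.54, 0.126), with no count filter (0.46, 0.102) and with doubled gate thresholds (0.47, 0.157), and above mural cells (1.75 ± 0.28, 5.46e-05). The basal gate was higher in all 3 mice but missed the threshold (105 ± 17.9 against 73.9 ± 2.65 CPM, SD, n = 3 mice; 0.45 ± 0.16, adjusted p = 0.0774 by edgeR). Fibroblasts were lower than luminal cells (-1.95 ± 0.19, adjusted p = 2.3e-09) and than the basal gate (basal against fibroblast 2.40 ± 0.21, 4.47e-10). Over the 3 mice, Itga6 was at 51.2% to 66.7% of the luminal level in macrophages and at 41.8% to 57.2% in T cells. The summed luminal markers of these gates, taken over the 4 tumours and not per mouse, were at 19.8% to 38.9% and 30.2% to 41.8%. The part of luminal RNA in these Itga6 levels was not tested.

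Itgb4 was highest in the basal gate. It was 33.4, 52.8, 62.7 and 57.3 CPM in the basal gate, 30.4, 27.5, 33.01 and 28.7 CPM in luminal cells, 7.94, 42.1, 26.9 and 42.8 CPM in endothelial cells and 4.26 to 9.21 CPM in fibroblasts. Endothelial and luminal values overlapped, and their difference did not pass the test. Itgb4 was lower in fibroblasts (-2.14 ± 0.27, adjusted p = 2.33e-07) and macrophages (-1.22 ± 0.21, 3.2e-05) than in luminal cells. The basal gate was above luminal cells by 0.76 ± 0.20 (adjusted p = 0.0127), and this call was lost under 7 alternatives, among them leaving out cells with luminal keratins (0.90, 0.0506). Itga3, another laminin-binding subunit, was 0 to 43.9 CPM over all gates, with the highest value from the 40 mural cells of tumour 1. Itga7, the laminin-binding subunit known from muscle, was 10.98, 71.6, 53.7 and 23.9 CPM in mural cells and at most 2.29 CPM in any other gate. It was found in 25 of 238 mural cells and did not pass the count filter. Itga2 (0 to 18.4 CPM) and Itga8 (0 to 16.1 CPM), subunits of collagen and of fibronectin and nephronectin receptors, had no gate apart from the others.

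The leukocyte integrins share the beta subunit Itgb2. It was 45.4, 49.4, 72.4 and 60.8 CPM in macrophages, 12.2, 43.4, 28.9 and 41.6 CPM in the T gate and 0.296 to 0.897 CPM in luminal cells. Both leukocyte gates were higher than luminal cells (6.94 ± 0.26, adjusted p = 4.92e-18, and 5.85 ± 0.50, 6.95e-10). The T gate was below macrophages in each tumour (-1.10 ± 0.33, adjusted p = 0.0194), a call lost under 5 alternatives. Itgam and Itgax, the alpha subunits of the myeloid complement receptors, were found mainly in macrophages. Itgam was 62.8, 45.1, 49.5 and 46.5 CPM and Itgax 40.5, 47.5, 52.4 and 37.1 CPM there, and both were under 1 CPM in luminal cells. Against luminal cells the log2 fold changes were 6.82 ± 0.30 for Itgam (adjusted p = 8.49e-16) and 7.50 ± 0.31 for Itgax (2.65e-17). T cells were below macrophages for both (-4.56 ± 0.67, adjusted p = 1.25e-05, and -3.82 ± 0.57, 9.9e-06). Itgax and Itgb2 were also higher in the endothelial gate than in luminal cells, at 1.78 to 15.9 and 3.57 to 10.5 CPM (3.65 ± 0.78, adjusted p = 0.000495, and 3.37 ± 0.61, 8.16e-05). These levels rest on few cells of the endothelial gate, with 7 UMIs of Itgax in 4 and 12 UMIs of Itgb2 in 5 of its 622 cells. That gate held 3 to 6 of the 6 macrophage markers, at a summed 41.1 to 130 CPM, with Adgre1, Csf1r and Cd68 at 0 in tumour 1 and Adgre1 at 0 in tumour 4, and their part in this result was not tested.

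Itgam and Itgax are neighbours on chromosome 7 on the plus strand (Itgam at 128062640 to 128118491 and Itgax at 128129547 to 128150657, GRCm38, GENCODE M21). Since both were highest in macrophages, the RefSeq promoter windows of both (GRCm38.p6, plus strand, 250 bases before to 50 after the annotated start) are printed with the motifs found in capitals. The motifs searched, on both strands, were GAGGAA, the purine-rich box bound by myeloid factors such as the product of Spi1, and TGANTCA, the AP-1 element, and they do not overlap here. The Itgam window is chr7:128062390-128062689 and the Itgax window chr7:128129300-128129599.
Itgam: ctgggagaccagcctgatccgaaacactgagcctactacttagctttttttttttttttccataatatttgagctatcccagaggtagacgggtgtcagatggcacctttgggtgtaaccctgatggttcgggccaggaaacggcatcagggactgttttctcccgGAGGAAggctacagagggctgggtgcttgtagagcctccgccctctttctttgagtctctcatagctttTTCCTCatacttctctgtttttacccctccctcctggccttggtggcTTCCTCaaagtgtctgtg
Itgax: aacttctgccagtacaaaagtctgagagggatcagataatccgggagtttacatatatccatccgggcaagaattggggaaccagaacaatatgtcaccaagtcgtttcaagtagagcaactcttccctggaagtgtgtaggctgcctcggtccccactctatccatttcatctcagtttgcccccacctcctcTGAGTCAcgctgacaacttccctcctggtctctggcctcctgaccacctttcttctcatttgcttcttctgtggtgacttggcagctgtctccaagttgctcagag
The Itgam window held 3 matches to the purine box, 84 and 15 bases before and 32 bases after the start, and none to the AP-1 element. The Itgax window held 1 AP-1 match, 56 bases before the start, and no purine box. Over all 32851 windows of the table, 28.3% held the purine box and 7.81% the AP-1 element. Of the 33 genes, 21 had a window, with 24 windows in all. Of these 24 windows, 13 held the purine box and 3 the AP-1 element. These letters describe the windows and say nothing of binding.

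**Figure D4:**
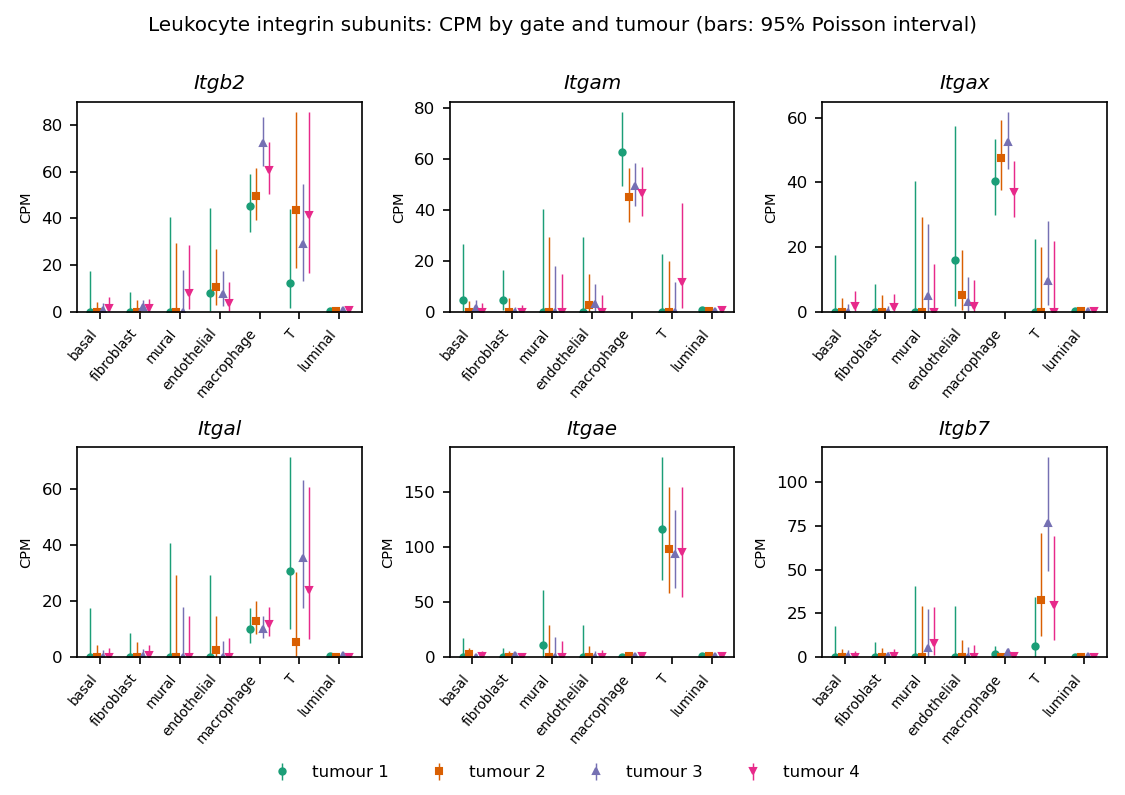
Levels of 6 leukocyte integrin subunits in CPM (vertical axis) by gate (horizontal axis), with a point for each tumour and bars for the exact 95% Poisson interval. Itgam and Itgax are high in macrophages, Itgae and Itgb7 in the T gate, and Itgb2 in both.

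The T gate was set apart by Itgae, the alpha subunit that binds E-cadherin and marks lymphocytes lodged in epithelium. Itgae was 116, 97.7, 93.0 and 94.98 CPM in the T gate of tumours 1 to 4 and 0.837 to 1.18 CPM in luminal cells, and no tumour departed from this. It was found in 13.5%, 15.5%, 9.17% and 14.3% of the thinned T gate cells and in 0.0565% to 0.102% of the thinned luminal cells (17.1% to 22.4% and 0.348% to 0.396% without thinning). The difference from luminal cells was 6.72 ± 0.45 (adjusted p = 1.74e-11) and that from macrophages 6.97 ± 0.58 (1.14e-09). Its beta partner Itgb7 was 6.12, 32.6, 77.0 and 29.7 CPM in the T gate and at most 7.97 CPM elsewhere. It was not tested because of the count filter, and in tumour 1 only 1 of the 105 T gate cells held it. Of the 70 cells with Itgae, 9 also held Itgb7 (12.9%), against 8.13% of the other T gate cells. Itgal, the alpha subunit of the main lymphocyte partner of Itgb2, was 30.6, 5.43, 35.3 and 23.7 CPM in the T gate and 9.91 to 13.0 CPM in macrophages, with overlap in tumour 2. Itga4, a lymphocyte and monocyte subunit, was at most 10.4 CPM, in macrophages.

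A pair of matrix-related genes was also raised in the T gate. Itga1 was 42.8, 65.1, 44.9 and 5.94 CPM, above luminal cells (3.46 ± 0.52, adjusted p = 1.28e-05) and macrophages (4.07 ± 0.63, 1.98e-05), with tumour 4 far below the others. Lamb3 was 18.4, 32.6, 19.2 and 47.5 CPM, above luminal cells (2.02 ± 0.43, adjusted p = 0.00103) and macrophages (3.47 ± 0.53, 1.46e-05). This level rests on 23 UMIs in 22 of 353 cells, and the call against luminal cells was lost without mouse 3 (1.94, adjusted p = 0.110). The T gate level of Lamb3 lay above that of luminal cells in every tumour. The summed luminal markers of the T gate were at 30.2% to 41.8% of the luminal gate's, and the part of luminal RNA in the Lamb3 level was not tested. Of the 22 cells with Lamb3, 4 also held Itgae (18.2%), against 19.9% of the others.

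Set against all genes, the 22 tested genes were called as follows. In fibroblasts 12 were called higher and 5 lower than in luminal cells (77.3% of 22, against 51.2% of all genes, 25.7% higher and 25.5% lower), with all 7 tested laminins among them, 5 higher and 2 lower. In macrophages 9 were called higher and 6 lower (68.2%, against 45.7% of all genes, 22.7% higher and 23% lower), and in mural cells 10 higher and 1 lower (50.0%, against 15%, 8.79% higher and 6.17% lower). In endothelial cells 9 were called higher and 0 lower (40.9%, against 36.2%, 18.4% higher and 17.8% lower), a share near the background of both directions together. At an unadjusted p under 0.05, 2 genes, Itgb5 and Lamb3, were lower there by edgeR, and DESeq2 called 0 lower. Other alternatives did call genes lower in endothelial cells. With no count filter, or with cells of several gates given to the first of them, 2 were called lower. With luminal keratin cells left out, the top Scrublet scores left out, or doubled gate thresholds, 1 was called lower in each. In T cells 5 were called higher and 1 lower (27.3%, against 17.5%, 9.82% higher and 7.66% lower). The median log2 fold change of the tested genes was 1.57 in fibroblasts and -0.15 in macrophages, against -0.06 over all genes in both. A gene could pass the count filter through the gate in which it is high, so these counts do not stand for all 33 genes. Of the calls in these 5 gates, those of Itga5 and Itga11 in mural cells, Lama2 in macrophages and Itgax in T cells did not hold in all 3 mice. Without mouse 3, the only one with 2 tumours, 17 of the 33 genes could be tested and the calls fell to 6 in mural cells, 7 in macrophages and 3 in T cells.

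In the basal gate 6 of the 22 were called higher and 0 lower than in luminal cells (27.3%, against 7.62% of all genes, 5% higher and 2.62% lower), and 9 were higher and 0 lower at an unadjusted p under 0.05 by edgeR, while DESeq2 called 5 higher and 0 lower. Of these, Lamb1, Lamb3, Itgb8, Itgb4 and Itgb5 were higher in all 3 mice. Lamb1 was 19.1, 10.3, 23.1 and 18.8 CPM against 4.09 to 6.68 CPM in luminal cells (1.54 ± 0.29, adjusted p = 0.000649), and Itgb5 was 19.1, 23.0, 29.1 and 40.3 CPM against 14.4 to 17.2 CPM (0.74 ± 0.20, adjusted p = 0.0214), a call lost under 5 alternatives, among them without mouse 3 (0.41, 0.807) and without mouse 1 (0.76, 0.0555). Itga11 was called from at most 2.64 CPM in the basal gate and was higher in 2 of 3 mice only. Summed fibroblast markers stood at 138, 11.5, 405 and 45.7 CPM in the basal gates of tumours 1 to 4, against 23.1, 12.3, 61.2 and 37.8 CPM in luminal cells, and their part in these calls was not tested. The calls numbered 3 without the mouse block, 10 without mouse 2, whose basal gate had the highest share of cells with luminal keratins, and 0 without mouse 3 (2 at an unadjusted p under 0.05 by edgeR), whose tumours gave 422 and 283 of the 930 basal cells. With cells holding luminal keratins left out, 7 were called, 3 of the 6 among them, from a fit in which mouse 2 had too few basal cells to enter.

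Basal cells and fibroblasts, both of which meet basement membranes, differed in 17 of the 22 genes, 5 higher and 12 lower in the basal gate (77.3%, against 36.9% of all genes, 17.1% higher and 19.8% lower). Higher in the basal gate were Lamb3 (3.08 ± 0.48), Itgb4 (2.90 ± 0.29), Itga6, Lama5 (2.39 ± 0.54) and Itgb8 (2.3 ± 0.47). Lower were Lama2 (-8.08 ± 0.40), Itga5 (-5.27 ± 0.68), Itga11 (-3.87 ± 0.64), Itga1 (-3.64 ± 0.48), Lamc1 (-3.31 ± 0.28), Lama4 (-3.01 ± 0.29), Lamb1 (-2.90 ± 0.26), Itga9 (-2.89 ± 0.63), Itgb5 (-2.80 ± 0.20), Lamb2 (-2.03 ± 0.25), Itgav (-1.34 ± 0.26) and Itgb1 (-1.14 ± 0.14). The calls of Itgav and Itga9 were lost when cells with luminal keratins were left out (-0.97, adjusted p = 0.0639, and -1.68, 0.129).

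Of the 22 genes, 9 were called between mural cells and fibroblasts, 1 higher and 8 lower in mural cells (40.9%, against 15.8% of all genes, 6.34% higher and 9.45% lower). Besides those given above, Itgb5 (-1.92 ± 0.24), Lamb1 (-1.25 ± 0.30), Itgav (-1.24 ± 0.38) and Itga5 (-2.23 ± 0.70) were lower in mural cells, and Lamc1 was called lower with 2 of 3 mice in that direction. The 8 lower also include Itga9, which had no UMI in the mural gate, and its call was lost under 2 of the 11 alternatives that could test it. The calls of Itgav and Itga5 were lost under 4 and 5 alternatives, among them without mouse 3 (-1.13, adjusted p = 0.337, and -2.96, 0.207). That of Lamb1 was lost without mouse 3 (-0.66, adjusted p = 0.464) and with luminal keratin cells left out (-0.90, 0.0615). The number called fell to 4 when cells with luminal keratins were left out and to 2 without mouse 3. Between endothelial and mural cells 7 were called, 3 higher and 4 lower in endothelial cells (31.8%, against 11.3% of all genes, 6.62% higher and 4.65% lower), and 3 without mouse 3. The 3 higher include Itga9, again with no UMI in the mural gate. Between T cells and macrophages 9 were called, 3 higher and 6 lower in T cells (40.9%, against 17.9% of all genes, 6.74% higher and 11.2% lower). The 6 lower include Itga5 and Itga9, which had no UMI in the T gate, and the call of Itga5 was lost under 3 alternatives.

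**Figure D5:**
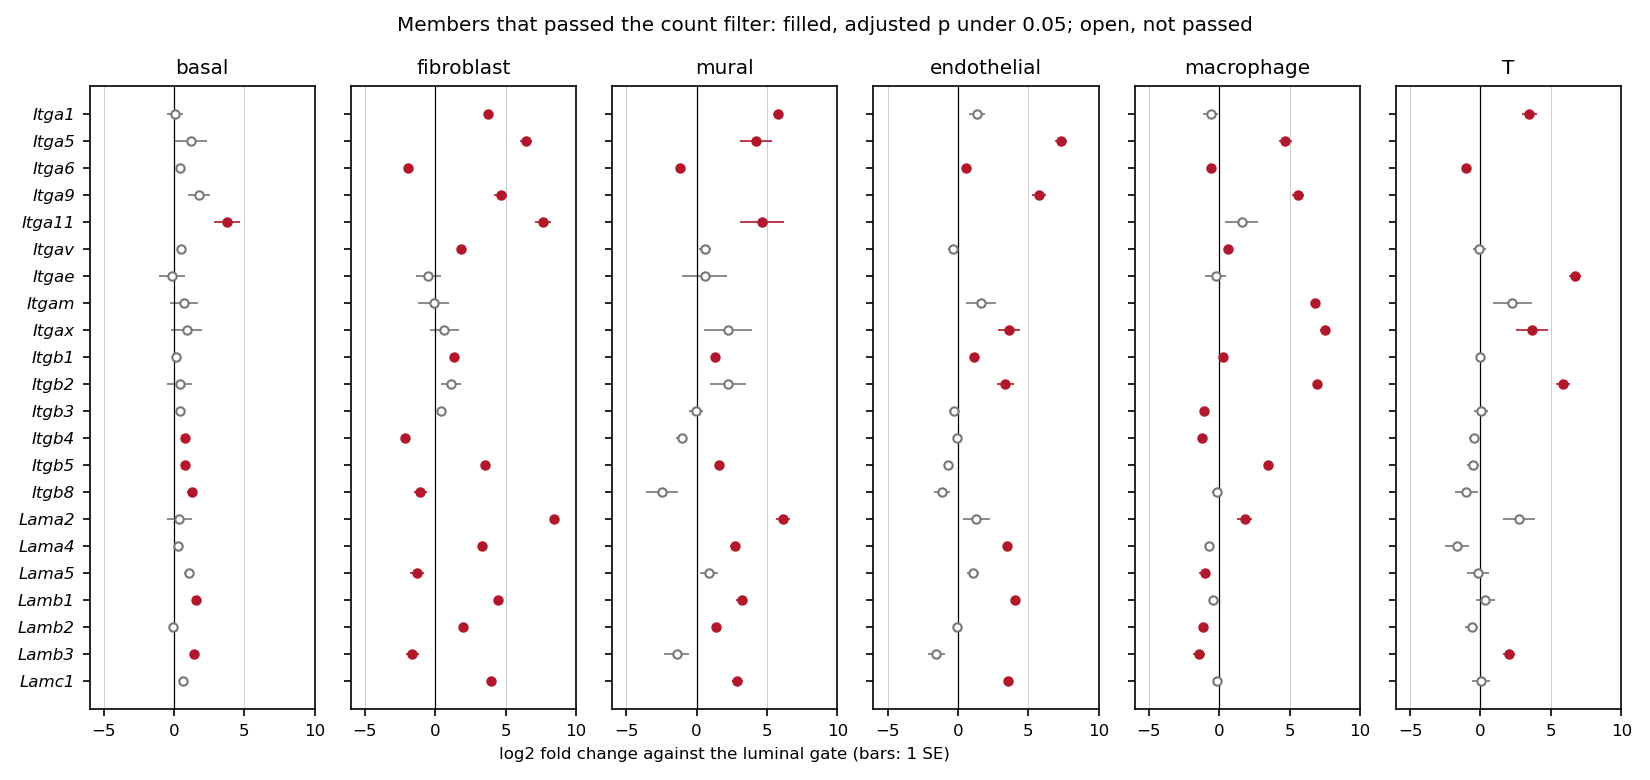
Log2 fold change (horizontal axis) of the 22 tested genes (rows) in each of 6 gates against the luminal gate, with bars of 1 SE. Filled points have an adjusted p under 0.05 and open points do not, and fold changes outside the axis, of genes with no UMI in a gate, are not drawn. Filled points lie on the right for Lama4, Lamb1 and Lamc1 in the fibroblast, mural and endothelial panels, and the largest integrin values in the macrophage and T panels are those of Itgax and Itgae.

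A list of 38 adhesion genes that act with integrins and laminins was set beside them, of which 36 were tested. In fibroblasts 26 were called higher and 5 lower than in luminal cells (51.2% of all genes were called). All 12 integrin ligands were among these, 10 higher and 2 lower, led by the fibronectin gene Fn1 (8.26), periostin Postn (7.80) and tenascin Tnc (7.70), while Npnt, the ligand of the Itga8 receptor, was lower (-2.12). In endothelial cells 22 were called higher and 5 lower (36.2% of all genes), led by Icam2 (7.86), a ligand of leukocyte integrins, and the basement membrane collagens Col4a1 (7.19) and Col4a2 (7.17). In mural cells 14 were called higher and 0 lower (15% of all genes), led by Col4a1 (6.63), Col4a2 (6.44) and the laminin-binding nidogen Nid1 (6.09). At an unadjusted p under 0.05 Npnt and Cdh1 were lower there by edgeR, and DESeq2 called 0 lower.

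In the basal gate 16 of the 36 partners were called higher and 0 lower (7.62% of all genes). These included Postn (3.88), the integrin activator Fermt1 (1.82) and the laminin-binding syndecan Sdc1 (1.48). The part of the fibroblast markers in the basal gate in these calls was likewise not tested. At an unadjusted p under 0.05 only Npnt was lower there by edgeR, and DESeq2 called 0 lower. In macrophages 12 were called higher and 15 lower (45.7% of all genes). Fermt3, the leukocyte form of that activator, was higher in macrophages (5.98) and in the T gate (4.92), while Fermt2, the form of other tissues, was lower in both (-1.38 and -0.90). Cdh1, which encodes the E-cadherin bound by the Itgae product, was lower in macrophages (-1.41), fibroblasts (-2.37) and endothelial cells (-1.52) than in luminal cells, where it averaged 53.3 CPM. In the T gate 7 partners were called higher and 5 lower (17.5% of all genes). Cd151, a membrane protein that binds laminin receptors, was lower there (-1.56).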

How the data were processed

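The authors deposited 4 matrices of raw UMI counts, genes by barcodes. Per the submitters' processing notes, Cell Ranger 2.2.0 and FastQC were used, and the genome was mm10 (GRCm38), and the annotation version is not given in the sources used here. Barcodes with fewer than 300 genes or with 15% or more mitochondrial UMIs were dropped, 24 of 36162 in all. Scrublet (scanpy 1.11.5) called 2 doublets at its automatic threshold, so doublet removal did not work and none were removed.

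UMIs were summed per gate and mouse (tumours 3 and 4 together), and only gates with at least 20 cells were used. The 21 sums were fitted in edgeR 4.0.16 in R 4.3.3 (quasi-likelihood F test after filterByExpr and TMM scaling), and mouse was a block, since the labels name the mouse of each tumour and all gates of a mouse come from the same animal. The 10 comparisons were each adjusted by Benjamini-Hochberg over 9105 genes. Levels are CPM of the sums, given per tumour with exact Poisson intervals at 95%. Shares of cells were taken after thinning to 1000 UMIs, with shallower cells left out. Intervals and floors (3 UMIs) cover counting error only.

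The members and lists were chosen with earlier results of these data known. By rule, values per tumour are given in full for genes at 50 CPM or more in their highest gate, and some others are given in full because a result turns on them. Adhesion partners are named by the 3 highest and 3 lowest passing folds at 50 CPM or more. Alternatives were DESeq2 1.42.0 size factors or test, no count filter, no block, 4 tumours as units, each mouse left out, the top 8% of Scrublet scores left out, and other gate rules. On simulated data for endothelial against luminal cells, 7870 genes were tested. Of the changed genes that passed the count filter, the procedure recovered 89.2% of 4-fold and 21.4% of 2-fold changes. Of its 94 calls, 2 were false. The simulation gave all genes the same preset spread, not taken from these data, and no differences between mice. It therefore does not give the recovery or error rate of the real comparisons.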

Additional observations from a re-analysis of the deposited data

Results flagged for a closer look

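Of 40 sets of levels over the 4 tumours (1 gene in 1 gate, reaching 50 CPM in a tumour), 1 had a sample far from the others by Dixon's test. Chance flags about 1 in 20, and 1 of 40 is not above that rate. The flagged set was Lamc3 in the fibroblast gate, at 74.4 CPM in tumour 3 against 9.17, 4.26 and 4.60 CPM in tumours 1, 2 and 4. The gap to the nearest tumour was 0.93 of the whole range, above the 95% critical value for 4 samples. Lamc3 entered the 40 sets only through tumour 3, the sample then flagged, and tumours 3 and 4 are from 1 mouse. The test therefore cannot decide whether tumour 3 departs from the others.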

How the results depend on the processing

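The number of members called was recomputed under 12 alternatives in each of 10 comparisons, and 110 of the 120 counts stayed within 1.5 times the main count. Without the replicate block for mouse, 3 members were called in basal against luminal cells in place of 6. It moved no other count of calls by over 1.5 times. With each mouse left out in turn, the counts ran from 0 to 10 in basal, 6 to 11 in mural, 7 to 17 in macrophage and 3 to 9 in T against luminal cells, from 2 to 10 in mural against fibroblast and from 3 to 8 in endothelial against mural cells. The lowest were without mouse 3, where 17 members were tested. Doubled gate thresholds gave 10 members in T against luminal cells in place of 6, and leaving out cells with luminal keratins gave 4 in mural against fibroblast cells in place of 9. The causes were not tested.

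Of the 100 named folds, 1161 values under these alternatives were obtained, of which 1079 kept their call and direction, 82 missed the threshold and 0 reversed, and a further 39 could not be computed because the gene was not tested. Leaving out mouse 3 accounts for 24 of the 82. With DESeq2 size factors the median of all genes moved by 0.17 in fibroblast, 0.11 in mural and 0.12 in endothelial against luminal cells (log2). The limits are the small gates (238 mural and 353 T cells), 3 mice, luminal RNA in all gates, doublets that could not be called, and gates that rest on a few UMIs. Of 112 shares of cells, 66 left their interval when cells were not thinned.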
